A study of Mus musculus with 8 samples.

Results

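The nuclear envelope protein Tmem120a was knocked down in 3T3-L1 adipocytes, and the stretches of the genome in contact with the nuclear lamina were compared with those of adipocytes carrying a control hairpin. The comparison used 4 of the 8 libraries of the series, which gave 2 lists of lamina-associated domains (LADs), with 2542 LADs in the control list and 5723 in the knockdown list. 3T3-L1 is a mouse fibroblast line that turns into fat cells in culture. All 4 libraries came from cells taken at day 9 after induction with insulin, dexamethasone, 3-isobutyl-1-methylxanthine (IBMX) and rosiglitazone. The control cells carried a control shRNA, which the study describes as non-target in its array methods and as an empty vector in its results. The knockdown cells carried a Tmem120a shRNA, stably in both cases. In each condition the cells received a lentivirus late in differentiation that encoded either LaminB1-Dam or Dam alone. A LAD list thus rested on 1 LaminB1-Dam library and 1 Dam library, with no replicate. No test between the conditions could be made, the read depth is unknown because the lists hold positions only, and every difference below is a difference between these 2 lists.

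LADs are long stretches of mostly silent, gene-poor and AT-rich chromatin that lie against the lamina, the protein mesh under the inner nuclear membrane. Transmembrane proteins of the nuclear envelope can help to place particular genes at the nuclear periphery in particular tissues, and Tmem120a is an envelope protein that is abundant in fat. DamID reads lamina contact by fusing a lamin to Dam, a bacterial enzyme that methylates the adenine in GATC, so that DNA near the lamina gains methylated GATC sites, and the Dam enzyme alone serves to correct for open chromatin.

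Each list was cut against the other into 8061 difference pieces, without any reference to undifferentiated cells. A stretch in control LADs alone was called lost where a whole control LAD met no knockdown LAD, split where it was a gap with LAD kept on both sides, and trimmed where it was an edge of a control LAD. A stretch in knockdown LADs alone was called new, bridged or extended by the mirrored rule. The borders of these pieces fell on the sites that Dam reads, as 4907 of the 5084 control borders (96.5%) and 11283 of the 11446 knockdown borders (98.6%) lay at a GATC in the mm9 genome. Border windows of the longest whole LAD that was lost, the longest split and the longest new LAD follow with the GATC in capitals, 30 bases each, to show what a border of a piece is.
longest lost LAD, left border, chr4:85702596-85702625, plus strand: ggacagatccagaGATCtcatcttgctatt
longest lost LAD, right border, chr4:86161902-86161931, plus strand: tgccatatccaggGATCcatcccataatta
longest split, left border, chr17:61432235-61432264, plus strand: tctttgaaatggaGATCtaaaaatgtaatg
longest split, right border, chr17:61975244-61975273, plus strand: gatgatccatcatGATCaagtaggcttcat
longest new LAD, left border, chr2:73909149-73909178, plus strand: ttgccactctagtGATCagttggcagaaca
longest new LAD, right border, chr2:74329278-74329307, plus strand: ctctcattacgatGATCacatttctggcga

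Most of the lamina contact was held in common. The control LADs covered 1198 Mb and the knockdown LADs 1164 Mb of the 2655 Mb of mm9, and 1052 Mb was in both, which is 87.8% of the control LAD length and 90.4% of the knockdown LAD length. Lost stretches numbered 4434 and summed to 146 Mb, or 5.50% of the genome, and gained stretches numbered 3627 and summed to 112 Mb, or 4.22% of the genome. The pieces were short, with a median of 21.6 kb for lost and 24.1 kb for gained stretches. The median LAD was 103 kb in the control list and 59.1 kb in the knockdown list, so the knockdown cells held a similar length of LAD in more and shorter blocks. The shortest LAD was 15.0 kb in both lists, whereas a gap between LADs could be as short as 4.01 kb.

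**Figure D1:**
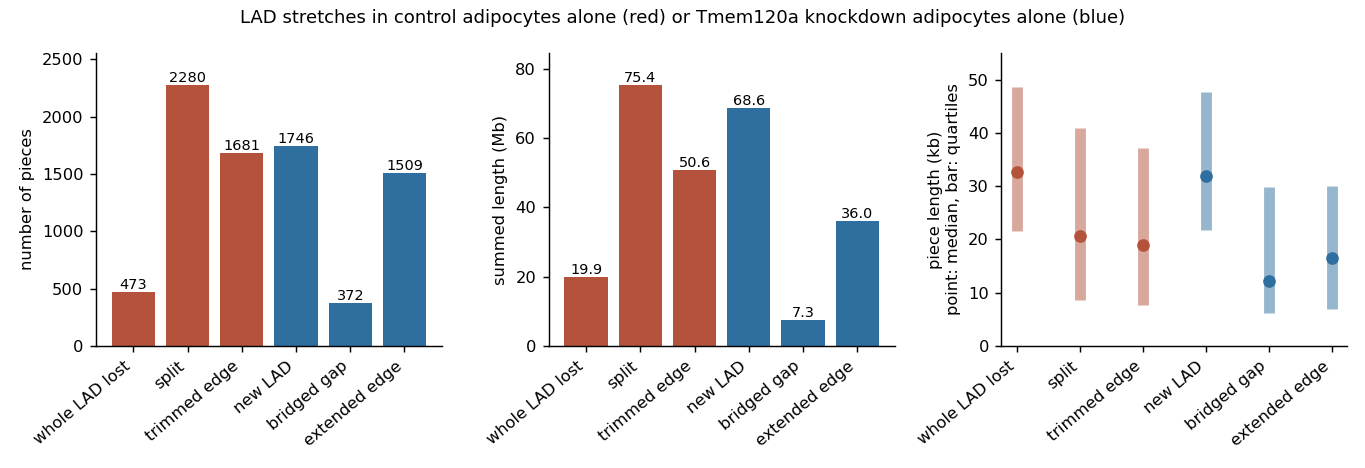
Number of pieces (left), summed length in Mb (middle) and piece length in kb (right; point, median; bar, quartiles) of the 3 classes of lost stretches (red) and the 3 classes of gained stretches (blue). Splits, at 2280 pieces and 75.4 Mb, and new LADs, at 1746 pieces and 68.6 Mb, were the largest class of their side on both measures.

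In the lists as deposited, splits were the largest class of loss. They made up 2280 of the lost pieces and 51.7% of the lost length, trimmed edges 1681 pieces and 34.7%, and whole lost LADs 473 pieces and 13.6%. With LADs of at least 100 kb only, splits made 28.2% of the lost length and trimmed edges outnumbered them, at 1118 to 906. With gaps under 50 kb closed, trimmed edges also outnumbered splits, at 1177 to 577, while splits still made 50.2% of the lost length. Whole lost LADs were small, with a median of 32.6 kb. Among them the longest, at 459 kb, was chr4:85702612-86161917, which held 99.3% of the gene body of Adamtsl1, a secreted relative of the Adamts matrix proteases, in control cells and left it with 0% in knockdown cells. The next, of 220.1 kb at chr10:56253266-56473355, met only the predicted gene Gm9956 and lay 143 kb from Gja1, the gap junction gene connexin 43. The third, of 217 kb at chrX:164628775-164846159, lay inside Frmpd4, a postsynaptic scaffold gene.

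Frmpd4 was also met by the second longest trimmed edge, of 330.2 kb at chrX:164184334-164514488. The gene spans 1106 kb, and its share in LADs was 88.1% in control and 3.69% in knockdown cells. The longest trimmed edge, of 355 kb at chr3:149497366-149852782, met only the ribosomal protein pseudogene Rpsa-ps10, and the third, of 306 kb at chr18:50882139-51188592, met no protein-coding gene.

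Of the 3 longest splits, 2 met no protein-coding gene. The longest, of 543 kb at chr17:61432251-61975259 inside a LAD of 2951 kb, lay 2279 kb from Nudt12 on one side and 978 kb from Efna5, an ephrin ligand of axon guidance, on the other. A split of 314 kb at chr19:50854316-51168175, likewise without a gene, lay 101 kb from Sorcs1, a sorting receptor of neurons. A split of 304 kb at chr10:108411970-108716146 held the start of Syt1, the calcium sensor of synaptic vesicle release, whose body was 77.3% in control LADs and 27.4% in knockdown LADs.

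Splits were most frequent in long control LADs and whole losses in short ones. Of the 350 control LADs of 1 Mb or more, 306 (87.4%) were split and 0 were lost, and of the 622 between 200 kb and 1 Mb, 413 (66.4%) were split and 3 (0.482%) were lost. Of the 844 control LADs under 50 kb, 365 (43.3%) were lost and 13 (1.54%) were split. A split needs a LAD long enough to hold it, so these shares are partly set by length. Scaled to length, LADs of 1 Mb or more held 1.62 splits per Mb and shorter LADs 2.47 per Mb. Even among the longest LADs, the median control LAD kept 95.6% of its length. Over all lengths, 430 of 2542 control LADs (16.9%) lay wholly in knockdown LADs, 744 (29.3%) were only trimmed, 895 (35.2%) were split and 473 (18.6%) were lost. Only 21 control LADs had the same borders in both lists.

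**Figure D2:**
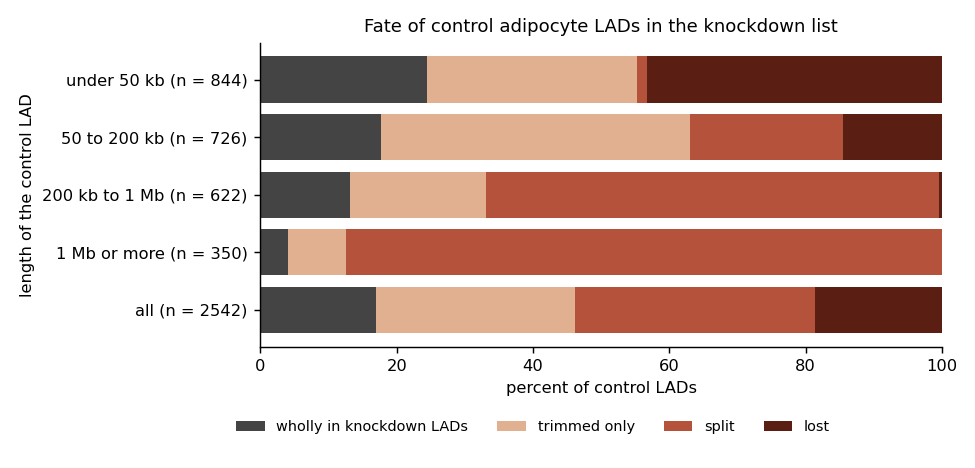
Percent of control LADs (x axis) in each length class (y axis, with the number of LADs) that lay wholly in knockdown LADs, were only trimmed, were split or were lost. The share that was split went from 1.54% under 50 kb to 87.4% at 1 Mb or more, and the share that was lost went from 43.3% to 0%.

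The 3 control LADs met by the most knockdown LADs lay on chromosomes X, 15 and 12. The first, chrX:83129507-87558206, spans 4.43 Mb around Il1rapl1, a synaptic adhesion gene, and Nr0b1, a nuclear receptor of adrenal and gonad development. It was met by 27 knockdown LADs and kept 86.3% of its length. Within it Nr0b1 stayed wholly in LADs, and the share of Il1rapl1 in LADs went from 100.0% to 81.4%.

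The second, chr15:17095609-25178605, spans 8.08 Mb and carries the cadherin genes Cdh10, Cdh12 and Cdh18. It was met by 24 knockdown LADs and kept 85.5% of its length. Cdh10 was 100.0% in LADs in both conditions, Cdh12 went from 100.0% to 97.5%, and Cdh18 from 100.0% to 41.5%, so the cuts were not spread evenly over the neighbouring cadherins.

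The third, chr12:46189814-52436394, spans 6.25 Mb, was met by 23 knockdown LADs and kept 83.1%. Nova1, a neuronal splicing factor in this LAD, stayed at 100.0%, and the kinase gene Prkd1 went from 100.0% to 69.8%. Of the 895 control LADs with a split, 415 had 1 split and 103 had 5 or more.

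In the lists as deposited, new LADs were the largest class of gain. They made up 1746 pieces and 61.3% of the gained length, extended edges 1509 pieces and 32.2%, and bridged gaps 372 pieces and 6.55%. New LADs were 49.7% of the gained length with gaps under 50 kb closed, where they numbered 1228 beside 1249 extended edges, and 45.3% with LADs of at least 100 kb only, where they numbered 140 beside 615 extended edges. New LADs were short, with a median of 31.9 kb, and their median distance to the nearest control LAD was 214 kb. Of the 1746, 383 (21.9%) lay within 50 kb of a control LAD and 542 (31.0%) lay over 500 kb away. Seen from the knockdown list, 30.5% of its LADs met no control LAD, 42.9% lay wholly within a control LAD and 331 joined 2 or more control LADs.

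The longest new LAD, of 420.1 kb at chr2:73909165-74329293, met no protein-coding gene. It lay in the interval between Atp5g3, a subunit of the mitochondrial ATP synthase, at 159.8 kb, and Lnp, at 29.1 kb, beside the Hoxd cluster of body-axis genes. All 40 Hox genes of the annotation started outside LADs in both lists. Of all starts outside control LADs 4.78% were gained, so 0 of 40 does not set the Hox genes apart. The second, of 283 kb at chr2:145135417-145418539, lay in Slc24a3, a sodium, calcium and potassium exchanger, whose share in LADs went from 9.02% to 85.9%. The third, of 255 kb at chr10:83262487-83517896, met no protein-coding gene. It lay 37.0 kb from 1500009L16Rik on one side and 316 kb from the kinase gene Nuak1 on the other.

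The longest extended edge, of 257 kb at chr11:63045898-63302514, met no protein-coding gene and ended 72.9 kb from Pmp22, a myelin protein gene. The second, of 207 kb at chr10:20295483-20502359, took in the start of Pde7b, a phosphodiesterase that breaks down cyclic AMP, and the share of Pde7b in LADs went from 5.06% to 86.1%. The third, of 202 kb at chr12:105311577-105513524, took in 7 serpin genes and is described with the gene families below. Bridged gaps were the smallest class. The longest was 117 kb at chr18:76887836-77004459 and lay 90.7 kb from Skor2. The second, of 110.4 kb at chr12:31405637-31516031, lay 53.2 kb from Fam150b on one side and 129.6 kb from Tmem18 on the other. The third, of 103 kb at chr7:138981216-139083828, fell inside the span of Fgfr2, a fibroblast growth factor receptor gene that the annotation used here extends over 3009 kb.

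Few borders stayed in place. Of the 4138 borders of control LADs that still met a knockdown LAD, 204 (4.93%) were unmoved, 1681 (40.6%) moved inward by a median of 18.9 kb and 2253 (54.4%) moved outward by a median of 26.5 kb, counted to the end of the knockdown LAD and so including gaps that it bridged. Within 5 kb of its old place lay 776 borders (18.8%), and within 10 kb 1237 (29.9%). Of the 8061 pieces of all classes, 1874 were under 10 kb.

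The balance of loss and gain varied by chromosome. Lost stretches took from 6.31% of the control LAD length on chromosome 6 to 21.5% on chromosome 10 among the autosomes, and 28.9% on chromosome Y, where the control LADs summed to 2.02 Mb. Chromosome 10 was also among the highest in gain, with gained stretches equal to 16.2% of its control LAD length, beside 16.8% on chromosome 13. Loss exceeded gain most on chromosome 4, by 12.9 Mb against 5.855 Mb, and on chromosome X, by 13.4 Mb against 6.60 Mb. Gain exceeded loss on chromosomes 6, 9, 11 and 19, most on chromosome 6, with 5.635 Mb gained and 4.58 Mb lost.

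Lost and gained stretches differed in sequence and in genes. Lost stretches had a GC content of 40.1%, close to the 39.2% of shared LADs, and held 3.74 protein-coding gene starts per Mb, beside 3.99 in shared LADs. Gained stretches had a GC content of 42.5% and held 7.52 gene starts per Mb. Both values lay between those of shared LADs and of the genome outside LADs, which had 44.0% GC and 12.5 starts per Mb. The GC contents given here were pooled over all bases, and the order partly depended on that. By the median stretch, new LADs had 42.49% GC, above the 42.20% outside LADs. Bridged gaps and extended edges lay below that median, at 41.18% and 41.58%. Splits had the lowest GC content and the fewest starts of the 6 classes, with 39.5% GC and 3.28 starts per Mb. Extended edges were the most gene-rich, with 8.28 starts per Mb. The genes also differed in length, with a median of 13.5 kb for those that started in lost stretches, 17.2 kb in gained stretches, 4.86 kb in shared LADs and 17.8 kb outside LADs. The density of GATC sites, which sets how finely DamID can read, was 2.53 per kb in lost stretches, 2.47 in gained stretches, 2.60 in shared LADs and 2.42 outside LADs, and its part in the calls was not tested.

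**Figure D3:**
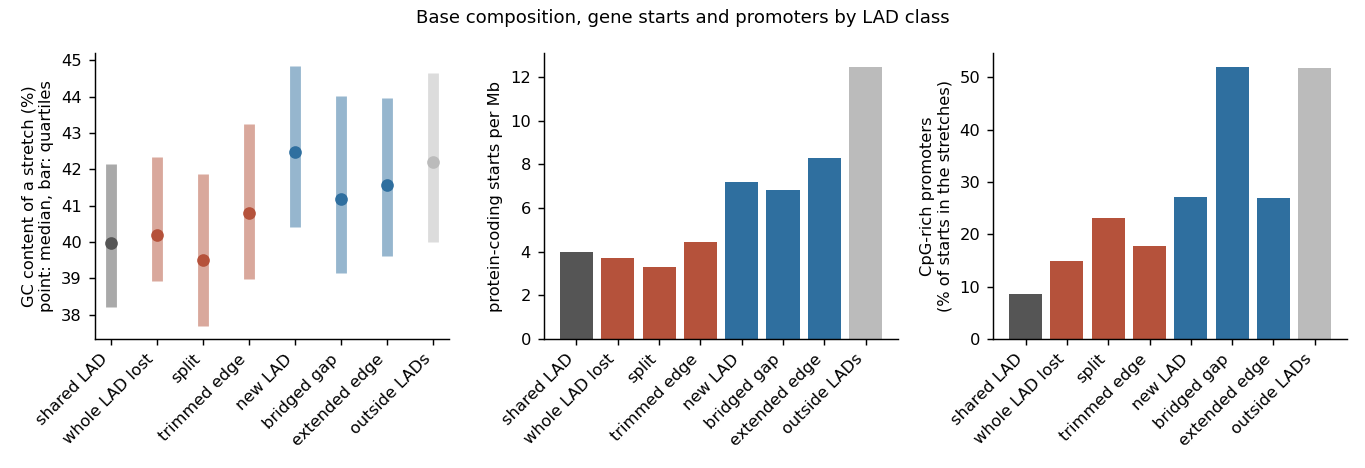
GC content of a stretch in percent (left; point, median; bar, quartiles), protein-coding gene starts per Mb (middle) and CpG-rich promoters as percent of the starts in the stretches (right), for shared LADs (dark grey), the lost classes (red), the gained classes (blue) and the genome outside LADs (light grey). Gene starts per Mb stood at 3.28 to 4.44 in the lost classes and at 6.82 to 8.28 in the gained classes, beside 12.5 outside LADs.

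More genes came into contact with a LAD than left. Of 22367 protein-coding genes, 436 (1.95%) touched a control LAD and no knockdown LAD, 1371 (6.13%) touched a knockdown LAD and no control LAD, 4773 touched LADs in both lists and 15787 in neither. Counted by the annotated start, the difference was smaller, with 546 genes (2.44%) starting in a lost stretch and 842 (3.76%) in a gained stretch. Counted by at least 50% of the gene body, 480 genes left and 802 entered. Whole genes that changed state were fewer, with 283 wholly in a control LAD and in no knockdown LAD and 424 the other way. The direction depended on short LADs: with LADs of at least 100 kb only, 640 genes left and 411 entered.

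The 5 longest genes that left LADs altogether were Nrk, Pcdh17, Clip4, Tmprss11a and Gabrr3. Nrk, a protein kinase gene of 96.1 kb at chrX:135448969-135545071, lay in a split of 260.0 kb. Pcdh17, a protocadherin of neurons at chr14:84843370-84936867, lay in a split of 132 kb that opened within a LAD of 3754 kb. Clip4, which encodes a relative of the microtubule-binding CLIP proteins, lay at chr17:72119042-72207691 in a control LAD of 160.1 kb that was lost whole. Tmprss11a, a membrane serine protease gene at chr5:86839435-86898015, lay in a split of 89.8 kb. Gabrr3, which encodes a subunit of the GABA receptor, lay at chr16:59407158-59461715 in a trimmed edge of 91.0 kb.

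The 5 longest genes that entered LADs altogether were Sel1l3, Homer1, Lcp1, Hs3st3a1 and Gucy2c. Sel1l3, of 106 kb at chr5:53498323-53604691, lay in a new LAD of 133.5 kb. Homer1, a scaffold of the postsynaptic density at chr13:94073712-94174917, lay in a new LAD of 140.1 kb, with no control LAD within 300 kb of the gene's centre. Lcp1, the actin-bundling protein L-plastin of white blood cells, lay at chr14:75530908-75630649 in an extended edge of 146 kb. Hs3st3a1, a heparan sulfate sulfotransferase gene at chr11:64248834-64336343, lay in an extended edge of 101 kb. Gucy2c, the guanylate cyclase receptor of the gut, lay at chr6:136645806-136730286 in a new LAD of 94.6 kb, which was below the limit when LADs of at least 100 kb alone were kept.

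**Figure D4:**
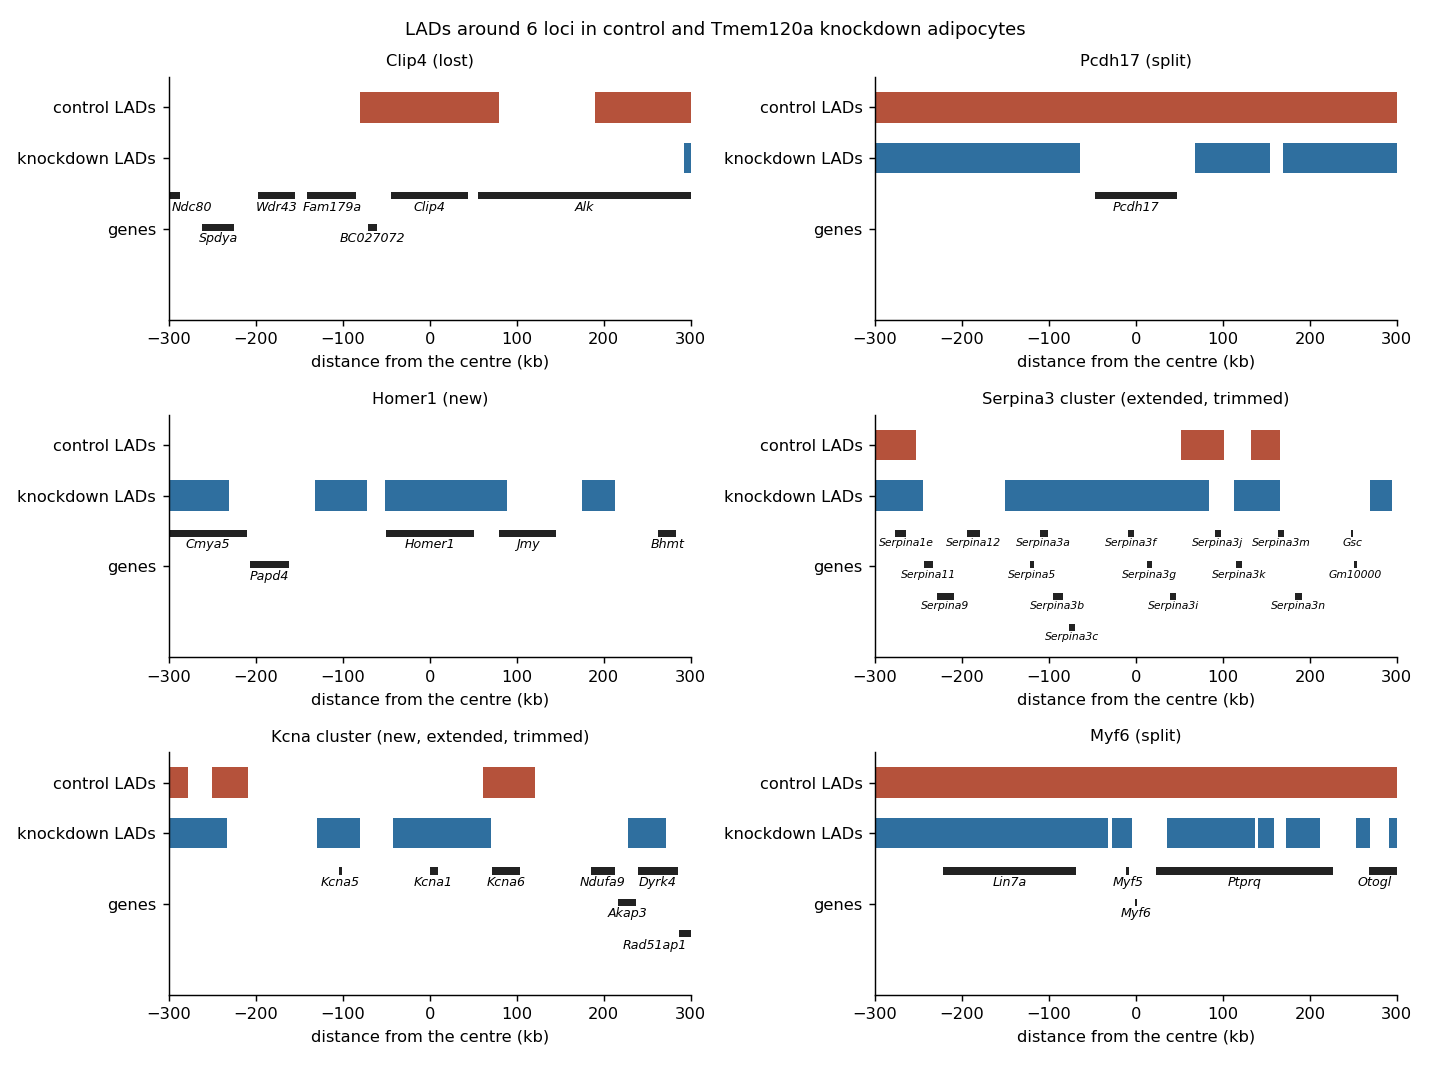
Control LADs (red), knockdown LADs (blue) and protein-coding genes (black, with symbols) around 6 loci, by distance in kb from the centre of the gene or cluster, over 300 kb on each side. Clip4 lost a whole LAD, Pcdh17 and Myf6 sat in splits of longer LADs, Homer1 sat in a new LAD, and in the Serpina3 and Kcna clusters some genes gained LAD cover where neighbours lost it.

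Pieces with many gene starts were mostly parts of gene clusters. The split with the most, 5, was chr11:58373266-58447325, with the olfactory receptor genes Olfr224, Olfr323, Olfr324 and Olfr325. A split of 139 kb at chr1:95859465-95998052 held 4 starts, among them Neu4, a sialidase, and Pdcd1, which encodes the T cell checkpoint receptor PD-1, and both genes went from 100.0% to 0% in LADs. A split of 46.4 kb at chr3:92473637-92520015 held Lce1a2, Lce1c, Lce1d and Lce1e of the late cornified envelope cluster of skin.

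On the gained side, 9 starts lay in an extended edge of 172 kb at chr11:50746050-50918353. Among them were 5 olfactory receptor genes and pseudogenes and the zinc finger gene Zfp354a, which went from 0% to 100.0% in LADs. A new LAD of 49.4 kb at chr11:99595101-99644532 also held 9 starts, which were predicted genes and Krtap4-8 of the keratin-associated protein cluster of hair. In the same cluster Krtap9-1 lay in a control LAD of 35.8 kb that was lost whole.

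The fat cell genes were almost all outside LADs in both lists. All 36 adipogenic transcription factors that matched the annotation started outside LADs in both conditions, so 0 of 36 changed, beside 2.44% lost and 3.76% gained over all protein-coding genes. As 0 of them started in a control LAD, no start could be lost, and of all starts outside control LADs 4.78% were gained. The markers Adipoq, Fabp4, Plin1, Pparg, Cebpa, Lep, Slc2a4 and Cidec had 0% of their bodies in a LAD of either list. Fabp4, the fatty acid carrier of fat cells, lay closest to a control LAD, at 214 kb, and 178 kb from a knockdown LAD. Adipoq, which encodes adiponectin, lay 2039 kb from the nearest control LAD and 168 kb from the nearest knockdown LAD, because a LAD was called nearer to it in the knockdown list. Tmem120a itself lay outside LADs in both lists, at 1671 kb and 1743 kb from the nearest LAD. RNA was not measured in these libraries, so the extent of the knockdown could not be read from them.

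Among 49 lipid storage and adipokine genes, 1 start was gained (2.04%) and 0 lost, and 3 genes entered LADs by gene body, beside 3.76% and 2.44% by start and 6.13% by body over all protein-coding genes. The count by body was thus near that of all genes, and no start could be lost because all 49 lay outside control LADs. Rbp4, the retinol carrier that fat cells and liver secrete, lay at chr19:38191110-38199811 in a new LAD of 50.1 kb and went from 0% to 100.0%. Acaca and Gyk touched knockdown LADs with part of their bodies only, Acaca, the acetyl-CoA carboxylase of fatty acid synthesis, from 0% to 18.5%, and Gyk, the glycerol kinase gene, from 0% to 47.8%. Among 30 insulin signalling genes, 1 start was gained (3.33%), close to the 3.76% of all genes, and 3 entered by body. The gained start was that of Tbc1d4, a target of Akt in glucose uptake, in a new LAD of 47.6 kb that covered 9.9% of the gene. The changes of Rbp4 and Tbc1d4 were absent with LADs of at least 100 kb only. The phosphoinositide 3-kinase subunits Pik3ca and Pik3cb went from 0% to 18.3% and from 0% to 28.6% of their bodies, with their starts outside.

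A list of genes linked to skeletal muscle had 4 of 59 starts lost (6.78%) and 1 gained (1.69%), with 12 shared, beside 2.44% lost and 3.76% gained over all protein-coding genes. The 4 lost starts were among 16 in control LADs, beside a lost share of 11.5% of all starts in control LADs. By gene body, 2 of the 59 left LADs and 4 entered, beside 1.95% and 6.13% of all protein-coding genes, and 1 of the 4, Trim55, touched a knockdown LAD with 0.12% of its body only. The study picked Myh2, Myo18b and Unc13c, 3 of the 4 with a lost start, on these samples and on expression data, so the count is no independent evidence of a direction. Its picks, whose positions it examined by FISH, also include Myh1, Ano5 and Trim55, which had no lost start. Ano5 went from 100.0% to 75.15% of its body in LADs, with its start in LADs of both lists. Myf6, a myogenic transcription factor, lay at chr10:106929916-106931785 in a split of 40.3 kb inside a LAD of 2013 kb and went from 100.0% to 0%. Its neighbour Myf5, the related factor at chr10:106919964-106923190, stayed at 100.0% in a short knockdown LAD beside the split. With gaps under 50 kb closed, the split at Myf6 disappeared.

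Myh2, the myosin heavy chain of fast fibres at chr11:66984529-67011019, went from 92.6% to 0% by the trimming of a control LAD of 51.5 kb. In the same cluster Myh4 stayed at 100.0% and Myh1 and Myh3 were at 0% in both lists. Myo18b went from 100.0% to 73.0% and Unc13c from 100.0% to 68.9% by splits over their starts. The difference at Myo18b was -27.0 percentage points, and -10.8 with gaps under 50 kb closed. Actn2, the alpha-actinin of the Z disc, went the other way, from 0% to 38.3%, with its start in a new LAD of 60.1 kb. The changes of Myh2 and Actn2 were absent with LADs of at least 100 kb only. At their edges, Mybpc1 went from 0% to 44.5% and Myom2, a protein of the M band, from 61.6% to 20.8%, with starts outside in both.

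Of 72 neuronal adhesion and synapse genes, 56 started in LADs of both lists, 2 starts were lost (2.78%) and 1 was gained (1.39%), beside 2.44% and 3.76% over all protein-coding genes. Of the 58 starts in control LADs, 3.45% were lost, beside 11.5% of all starts in control LADs. Pcdh9, a protocadherin of 873 kb, went from 93.1% to 38.0% of its body in LADs and its start lay in a trimmed edge of 24.98 kb. Grik2, a kainate receptor subunit, went from 94.7% to 35.6%, Lrrc4c from 92.7% to 58.6%, Dscam from 87.2% to 58.7% and Negr1 from 69.8% to 41.3%. Shares went up in Dscaml1, from 0% to 25.2%, and in Cdh13, from 2.74% to 20.8%. Others barely moved, such as Dpp6 at 93.4% and 94.1%. Dlg2 went from 71.0% to 65.7%, a difference of -5.32 percentage points that was -2.57 with gaps under 50 kb closed. Kcnip4 had its start in a new LAD although the share of its body was 89.2% in control and 88.1% in knockdown cells, and that difference of -1.14 points turned to 2.09 with LADs of at least 100 kb only.

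Among 23 nuclear envelope genes, 0 starts were lost and 0 gained, beside 2.44% and 3.76% over all protein-coding genes. Only 1 start, that of Syne1, lay in a control LAD, and 22 lay outside. Of all starts outside control LADs 4.78% were gained, so 0 of 22 does not set this list apart. By gene body 3 entered LADs, beside 6.13% of all protein-coding genes. Syne1 started in LADs of both lists and went from 36.4% to 59.9% of its body. Lemd3, which encodes the inner nuclear membrane protein MAN1, went from 0% to 61.9% without its start. Smaller parts of Syne2, at 9.46%, and Nup210, at 15.5%, lay in knockdown LADs and not in control LADs.

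**Figure D5:**
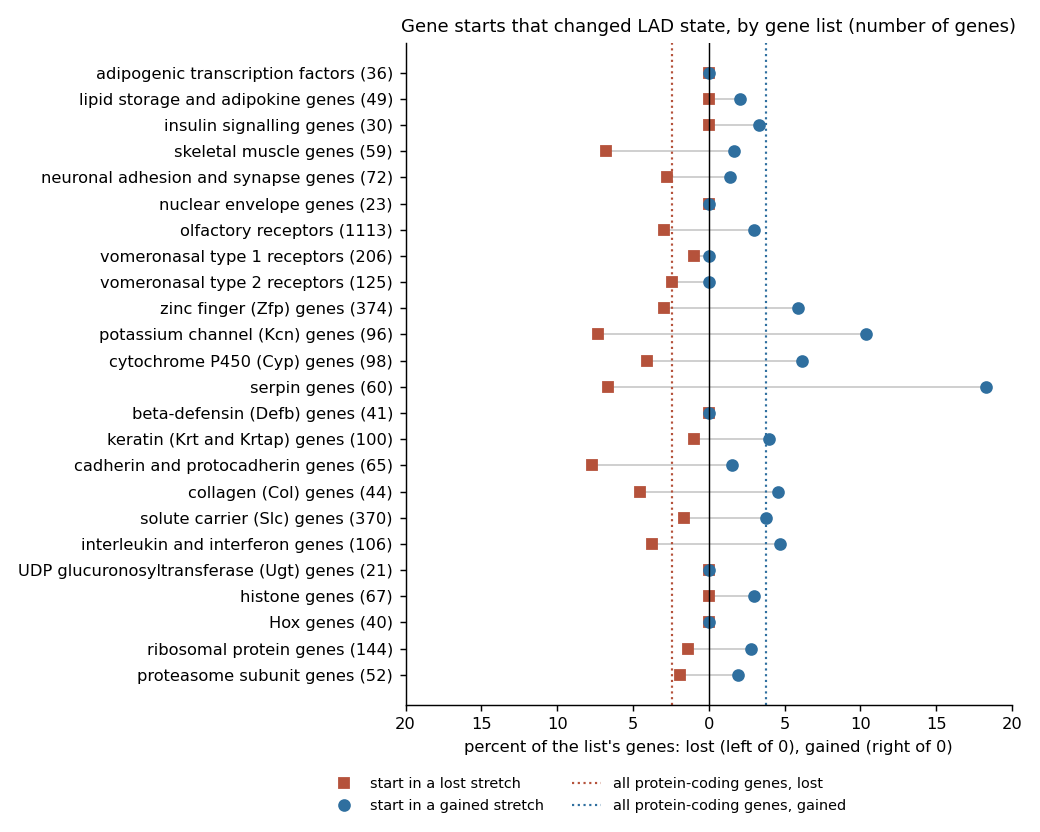
Percent of the genes of each list (number in brackets) whose start lay in a lost stretch (red squares, to the left) or in a gained stretch (blue circles, to the right), with dotted lines at the 2.44% and 3.76% of all protein-coding genes. Among the lists of protein-coding genes, serpin genes stood furthest to the right, at 18.3%, and cadherin and protocadherin genes furthest to the left, at 7.69%.

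Clustered gene families changed by blocks of neighbours, so their members are not independent of each other. Among 60 serpin genes, a family of protease inhibitors, 11 starts were gained (18.3%) and 4 lost (6.67%), beside 3.76% and 2.44% over all protein-coding genes. Of their 25 starts in control LADs, 16.0% were lost, beside 11.5% over all genes. Of the 11 gained, 7 lay in the extended edge on chromosome 12 described above, namely Serpina5, Serpina3a, Serpina3b, Serpina3c, Serpina3f, Serpina3g and Serpina3i. Serpina3j, the next gene in the cluster, went from 100.0% to 0% by a trimmed edge of 16.7 kb, and Serpina3k, after it, from 0% to 100.0% by an extended edge of 19.5 kb. Serpinb9c, Serpinb9f and Serpinb6d, in another serpin cluster on chromosome 13, went from 100.0% to 0%, whereas the starts of Serpinb9d and Serpinb9e in that cluster were gained, with 54.7% and 99.6% of their bodies in control LADs and 100.0% in knockdown LADs.

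Potassium channel genes had 7 of 96 starts lost (7.29%) and 10 gained (10.4%), beside 2.44% and 3.76% over all protein-coding genes. Of their 27 starts in control LADs, 25.9% were lost, beside 11.5% over all genes. On chromosome 6, Kcna5 and Kcna1 went from 0% to 100.0% by a new LAD of 49.7 kb and an extended edge of 103 kb, and Kcna6, the next gene, went from 100.0% to 0% by a trimmed edge of 49.9 kb. Kcna10 on chromosome 3 entered a new LAD of 74.7 kb. Kcna4 on chromosome 2 left LADs in a split of 165 kb. Kcnj2 and Kcnk9 left by trimmed edges, and Kcnj5 entered a new LAD of 30.9 kb.

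Cadherin and protocadherin genes had 5 of 65 starts lost (7.69%) and 1 gained (1.54%), beside 2.44% and 3.76% over all protein-coding genes. Of their 35 starts in control LADs, 14.3% were lost, beside 11.5% over all genes. Pcdh8, Pcdh9 and Pcdh17 on chromosome 14 were among those lost, Pcdh8 by a trimmed edge of 36.5 kb at the end of a LAD of 3175 kb. Cytochrome P450 genes had 6 of 98 starts gained (6.12%) and 4 lost (4.08%), beside 3.76% and 2.44% over all protein-coding genes. Of their 51 starts in control LADs, 7.84% were lost, beside 11.5% over all genes. Cyp11b1 and Cyp11b2, enzymes of corticosteroid synthesis, were among the gained, side by side in a new LAD of 42.7 kb. Cyp2j9 was among the lost. Zinc finger genes of the Zfp type had 22 of 374 starts gained (5.88%) and 11 lost (2.94%), beside 3.76% and 2.44% over all protein-coding genes. Of their 43 starts in control LADs, 25.6% were lost, beside 11.5% over all genes. Zfp109, Zfp111 and Zfp114 entered together in a new LAD of 111 kb on chromosome 7.

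Solute carrier genes were near the 2.44% lost and 3.76% gained over all protein-coding genes, with 6 of 370 starts lost (1.62%) and 14 gained (3.78%). The cystine transporter Slc7a11 went from 55.8% to 0% by a trimmed edge of 149 kb, and the sugar transporter Slc2a12 from 0% to 100.0% in a new LAD of 90.1 kb. A new LAD of 149 kb on chromosome 13 took in the phosphate transporter genes Slc17a1 and Slc17a4 with the testis histone genes Hist1h2ba and Hist1h2aa at the edge of the histone cluster. These were the only starts that changed among 67 histone genes, of which 65 lay outside LADs in both lists.

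Among 106 interleukin and interferon genes, 4 starts were lost (3.77%) and 5 gained (4.72%), beside 2.44% and 3.76% over all protein-coding genes. The neighbouring cytokine genes Il20 and Il10 on chromosome 1 went opposite ways, as Il20 lay in a control LAD of 44.0 kb that was lost whole and Il10, an anti-inflammatory cytokine, in a new LAD of 92.0 kb. Il17a, a cytokine of helper T cells, left LADs by a trimmed edge, and Il1rn, the interleukin 1 receptor antagonist, entered a new LAD of 44.5 kb.

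The largest sensory families mostly stayed in LADs. Of 1113 olfactory receptor genes, 973 (87.4%) started in LADs of both lists, 33 starts were lost (2.96%) and 33 gained (2.96%), beside 2.44% and 3.76% over all protein-coding genes. Of the 1006 receptors in control LADs 3.28% were lost, beside 11.5% over all genes, and of the 107 outside control LADs 30.8% gained a LAD, beside 4.78%. Of 206 vomeronasal type 1 receptors 2 were lost (0.971%) and 0 gained, and of 125 type 2 receptors 3 were lost (2.40%) and 0 gained. The 41 beta-defensin genes and 21 UDP glucuronosyltransferase genes had no start that changed.

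Promoters in lost stretches, and those in gained stretches, lay between those of shared LADs and those outside LADs in CpG content, although the 50 in bridged gaps did not by their share of CpG-rich promoters. CpG-rich promoters, here windows of 250 bases before to 50 bases after the start with a GC content of at least 50% and an observed over expected CpG ratio of at least 0.6, were 19.8% of the 546 promoters in lost stretches and 28.5% of the 842 in gained stretches. The share was 8.67% in shared LADs, 51.7% outside LADs and 42.0% over all 22362 windows without unknown bases. By class it was lowest for whole lost LADs, at 14.9% of 74, and highest for bridged gaps, at 52.0% of 50, where the median observed over expected ratio was 0.685 beside 0.656 outside LADs. The median count of CpG in a window was 4 in lost, 6 in gained, 2 in shared and 16 in outside promoters. The motif is CG, which reads the same on both strands. Promoters of 4 of the genes described above are printed from mm9, 300 bases each in the direction of the gene with CG in capitals, since they show that genes with many CpG and genes with few changed on both sides.
Pcdh17 promoter, chr14:84843120-84843419, plus strand: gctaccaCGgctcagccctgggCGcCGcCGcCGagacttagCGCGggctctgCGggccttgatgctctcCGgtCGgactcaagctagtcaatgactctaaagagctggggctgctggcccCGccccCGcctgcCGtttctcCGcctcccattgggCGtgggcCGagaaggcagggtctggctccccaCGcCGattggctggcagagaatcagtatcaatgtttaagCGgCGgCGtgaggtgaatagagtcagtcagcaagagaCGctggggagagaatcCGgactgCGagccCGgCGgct
Myf6 promoter, chr10:106931736-106932035, minus strand: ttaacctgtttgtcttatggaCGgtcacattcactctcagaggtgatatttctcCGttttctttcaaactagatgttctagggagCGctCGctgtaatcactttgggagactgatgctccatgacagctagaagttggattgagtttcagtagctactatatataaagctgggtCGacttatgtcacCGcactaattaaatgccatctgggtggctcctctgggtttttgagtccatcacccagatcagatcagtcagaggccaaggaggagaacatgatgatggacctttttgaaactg
Homer1 promoter, chr13:94073462-94073761, plus strand: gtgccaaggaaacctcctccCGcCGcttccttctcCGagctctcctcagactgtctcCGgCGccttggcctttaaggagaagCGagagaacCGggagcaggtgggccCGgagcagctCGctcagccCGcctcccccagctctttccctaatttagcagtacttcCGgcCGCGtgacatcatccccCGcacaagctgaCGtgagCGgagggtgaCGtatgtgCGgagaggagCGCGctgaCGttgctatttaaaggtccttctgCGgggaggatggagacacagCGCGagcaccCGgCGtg
Rbp4 promoter, chr19:38199762-38200061, minus strand: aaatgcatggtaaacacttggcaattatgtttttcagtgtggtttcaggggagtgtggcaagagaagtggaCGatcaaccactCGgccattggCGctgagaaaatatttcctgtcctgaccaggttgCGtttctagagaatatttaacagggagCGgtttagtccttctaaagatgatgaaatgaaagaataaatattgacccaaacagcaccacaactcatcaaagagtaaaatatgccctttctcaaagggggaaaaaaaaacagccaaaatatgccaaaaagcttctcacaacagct

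Pcdh17, which left LADs, had 26 CpG at an observed over expected ratio of 0.822, and Homer1, which entered, had 26 at a ratio of 0.874. Myf6, which left, had 6 CpG at 0.409 and Rbp4, which entered, had 5 at 0.405. Among the 10 longest genes that changed altogether, Sel1l3 had the most, 42, and Clip4 the fewest, 3.

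MicroRNA genes, whose short RNAs pair with messenger RNAs through a seed of bases 2 to 8, were looked up separately. Of 1577 microRNA genes of the annotation, 98 starts (6.21%) lay in lost stretches and 53 (3.36%) in gained stretches, with 431 in shared LADs and 995 outside. Over all protein-coding genes the shares were 2.44% and 3.76%, and the stretches themselves made up 5.50% and 4.22% of the genome. A single stretch held 35 of the 98 lost starts, a split of 14.4 kb at chr2:10402553-10416917, inside the gene Sfmbt2, where Mir466, Mir467 and Mir669 genes and predicted microRNA genes are repeated many times. Without that stretch 63 of 1542 (4.09%) were lost. That share was above the 3.36% gained over all microRNA genes and below the 5.50% of the genome in lost stretches. No leaning of microRNA genes towards loss is read from it. With gaps under 50 kb closed, 53 were lost and 56 gained, so the order turned, and with LADs of at least 100 kb only, 135 were lost and 13 gained. Reads from such repeated copies are hard to place, and the part of this in the split was not tested. In the longest pieces that held a microRNA gene, a trimmed edge of 197 kb on chromosome 2, a split of 172 kb on chromosome 7 and a trimmed edge of 168 kb on chromosome 4, the locus was in each case a predicted one without a Mir name.

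The microRNAs whose lamina position the study describes individually were matched to 12 loci. Other microRNAs that the study names are not among them. miR-467 and miR-181a stand for several loci each, and these 12 do not hold the whole Mir467 family. Of these, 5 lay in lost stretches and 1 in a gained stretch. The study chose the microRNAs by their levels in knockout mouse fat and by their positions in these samples, so their direction is no independent evidence. Mir201 at chrX:65241271-65241336 lay in a split of 41.9 kb, Mir216a at chr11:28657012-28657083 in a split of 10.7 kb, Mir690 at chr16:28600021-28600129 in a split of 18.3 kb and Mir467b in the split on chromosome 2. Of Mir467 loci outside the 12, Mir467a-3, Mir467a-4 and Mir467a-5 lay in that same split and Mir467h in a new LAD of 23.4 kb on chromosome 9. Mir181a-1 at chr1:139863032-139863118 lay in a control LAD of 54.4 kb that was lost whole, together with Mir181b-1. Mir340 at chr11:49883204-49883301 lay in an extended edge of 44.5 kb. The other 4 Mir467 loci among the 12, Mir467a-1, Mir467c, Mir467d and Mir467e, stayed in LADs of both lists, and Mir710 and Mir181a-2 lay outside LADs in both. Mir201, Mir216a, Mir690 and Mir340 changed in the direction that the study describes, and others did not. The study describes miR-467 as kept at the envelope in the knockdown, whereas Mir467b left LADs here and Mir467h entered one. It describes miR-710 as failing to be recruited, and for miR-181a a LAD that was shortened in the single knockdown and not lost. For the changed loci other than Mir467b, and for Mir181b-1, a mature sequence is given from RefSeq (GRCm38.p6) with the seed in capitals, the 5p arm where there are separate arms. miR-181a-5p and miR-181b-5p, from the lost LAD on chromosome 1, have the same seed.
mmu-miR-181a-5p: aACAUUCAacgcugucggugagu
mmu-miR-181b-5p: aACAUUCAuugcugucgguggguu
mmu-miR-201-5p: uACUCAGUaaggcauuguucuu
mmu-miR-216a-5p: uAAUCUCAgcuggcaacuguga
mmu-miR-690: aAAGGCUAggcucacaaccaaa
mmu-miR-340-5p: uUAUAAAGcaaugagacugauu

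Of the other changed microRNA genes with a Mir symbol, chosen after their positions were seen, Mir547 shared the split of Mir201 on chromosome X, and Mir325 and Mir384 lay together in another split there, of 109.7 kb. Mir135a-2 lay in a split of 85.9 kb on chromosome 10 and Mir153 in a split of 27.1 kb on chromosome 12. On the gained side, Mir872 lay in a new LAD of 33.6 kb on chromosome 4 and Mir1961 in a new LAD of 36.2 kb on chromosome 5.

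The counts of pieces followed how short LADs and gaps were treated. With gaps under 50 kb closed in both lists, the 2280 splits became 577 and the lost length went from 146 Mb to 114 Mb, beside a gained length of 112 Mb that went to 117 Mb, so that the order of loss and gain turned. With LADs of at least 100 kb only, the 1746 new LADs became 140 and the gained length went from 112 Mb to 44.3 Mb. The knockdown list held more LADs than the control list under each of these settings, at 3096 against 1653 with gaps closed and at 1991 against 1285 with long LADs only. Gained stretches held more gene starts per Mb than lost stretches in each of the 6 alternative settings in which this was computed.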

How the data were processed

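DamID libraries of control and Tmem120a knockdown adipocytes were used. According to the methods and the submitters' processing notes, the authors mapped reads to mm9 (BWA and limma are named without a version), took the log2 ratio of LaminB1-Dam to Dam at DpnI fragments and found LADs with DNAcopy. The deposited lists hold LAD positions (chromosome, start and end) without a score, read count or depth. Each list was matched to its condition by the abbreviation in its name.

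The lists were cut against each other with Python 3.11.15 and numpy 2.4.6 on 21 chromosomes. The classing of pieces was tested on simulated lists. Genes and sequence came from GENCODE vM1 and NCBIM37 (mm9), and mature microRNAs from RefSeq (GRCm38.p6). Starts were read as 0-based and are printed 1-based. Named items were the 3 longest pieces of each class, the 3 pieces of each direction with the most starts, the 5 longest genes wholly changed in each direction, the 3 most divided control LADs and changed members of gene lists. Genes named inside those LADs, unchanged neighbours such as Myf5, and the examples from large families were picked after their values were seen. The members and lists were chosen with earlier results of these data known. With 1 list per condition, no test was made. Alternatives were LADs of at least 30 or 100 kb, gaps under 10 or 50 kb closed, pieces of at least 10 kb, autosomes only, and a gene placed by its start or by 50% of its body. Results that involve items withheld from this text are not reported here.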

Additional observations from a re-analysis of the deposited data

How the results depend on the processing

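No paired analysis was possible because each condition gave 1 list from 1 pair of libraries. Nor could a replicate be left out. With LADs of at least 30 kb only, new LADs numbered 1057, and the other 14 results stayed within 1.5 times. With LADs of at least 100 kb only, the length in knockdown LADs alone was 44.3 Mb, whole lost LADs numbered 209, splits 906, trimmed edges 1118, new LADs 140, bridged gaps 131 and extended edges 615, splits made 28.2% of the lost length, and 411 genes lay in knockdown LADs alone beside 640 in control LADs alone. With gaps under 10 kb closed, bridged gaps numbered 212. With gaps under 50 kb closed, whole lost LADs numbered 256, splits 577, bridged gaps 106 and lost microRNA genes 53, beside 56 gained, and the lost length of 114 Mb fell below the gained length of 117 Mb. With pieces of at least 10 kb only, bridged gaps numbered 198 and extended edges 1000. Autosomes alone moved none of 15 results by over 1.5 times. Genes in knockdown LADs alone numbered 842 by start and 802 by at least 50% of the body. In 2 alternatives chosen after seeing the data, lost microRNA genes numbered 63 without the stretch on chromosome 2, and closing gaps under 50 kb with LADs of at least 100 kb gave 119.5 Mb lost and 76.4 Mb gained. Among the named genes, the share of Kcnip4 in knockdown LADs minus that in control LADs turned from -1.14 to 2.09 percentage points with LADs of at least 100 kb only. Gucy2c, Myh2, Actn2, Tbc1d4 and Rbp4 had no change under that setting, and Myf6 none with gaps under 50 kb closed. With those gaps closed the differences moved from -27.0 to -10.8 points in Myo18b, from -5.32 to -2.57 in Dlg2 and from -1.14 to -3.08 in Kcnip4, and that of Dlg2 was -7.99 with LADs of at least 100 kb only. These shifts follow from which short LADs and gaps a setting removes, and the lists hold no score by which a short LAD could be weighed.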
